A study of Mus musculus with 12 samples.

Results

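Metallothionein and zinc transport genes were followed in mouse thioglycolate-elicited peritoneal macrophages (PMφs), which are macrophages drawn into the peritoneal cavity by an irritant and collected by lavage. The 8 genes were taken by name from the 43253 gene symbols of the deposited table. They are the metallothioneins Mt1 and Mt2, the zinc-sensing transcription factor Mtf1, the exporters Slc30a1, Slc30a5 and Slc30a7 and the importers Slc39a1 and Slc39a14. They were chosen with results of these libraries in view, so their values are a description and carry no p-value. The 12 sequenced cultures, each giving 1 poly(A) RNA library, formed 4 groups of 3. Control PMφs received neither oxidized low-density lipoprotein (oxLDL) nor lipopolysaccharide (LPS), oxLDL PMφs were cultured for 24 h with 100 µg/ml human medium oxLDL, LPS PMφs received 10 ng/ml ultrapure LPS, and oxLDL+LPS PMφs received both, oxLDL first. For how long LPS was present is not given for these libraries. All 4 groups were wild-type PMφs collected on day 4 after injection of 4% thioglycolate, selected by adherence for 18 h and grown in DMEM with 10% FBS. The mice were C57BL/6J littermates of both sexes, 8 to 12 weeks old, and their cells were pooled before they were divided among the groups, so a library is a pool and not 1 animal.

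Zinc is held in cells by metallothioneins, small cysteine-rich proteins that also bind copper. Zinc transporters of the SLC30 (ZnT) family move the metal out of the cytosol, across the plasma membrane or into organelles, and those of the SLC39 (ZIP) family move it into the cytosol. MTF1, the product of Mtf1, binds metal response elements in the promoters of Mt1, Mt2 and Slc30a1 when zinc is plentiful. In macrophages exposed to bacterial products, redistribution of zinc is a known element of the defense that withholds metals from microbes.

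Mt2 and Mt1 lie next to each other on chromosome 8 of GRCm38, both on the forward strand, at chr8:94172664-94173568 and chr8:94179082-94180327. The 5513 bases between them hold 0 other annotated genes. The longest stretch that the transcripts share without a mismatch is 20 bases, against reads of 150 bases. Slc30a1 (chr1:191906767-191913247, forward strand) encodes the plasma membrane exporter ZnT1. The promoters of these 3 genes are shown because the genes are textbook targets of MTF1 and because they are the members called between LPS and oxLDL+LPS libraries with the replicate number as a block. The sequences are from RefSeq (GRCm38.p6) and run 5′ to 3′ on the forward strand from 250 bases before to 30 bases after the RefSeq start site, at chr8:94178839-94179118 for Mt1, chr8:94172368-94172647 for Mt2 and chr1:191906531-191906810 for Slc30a1. Capitals mark the core of the metal response element (TGCACNC or TGCGCNC) and the core of the antioxidant response element (TGACNNNGC), each searched on both strands.
Mt1: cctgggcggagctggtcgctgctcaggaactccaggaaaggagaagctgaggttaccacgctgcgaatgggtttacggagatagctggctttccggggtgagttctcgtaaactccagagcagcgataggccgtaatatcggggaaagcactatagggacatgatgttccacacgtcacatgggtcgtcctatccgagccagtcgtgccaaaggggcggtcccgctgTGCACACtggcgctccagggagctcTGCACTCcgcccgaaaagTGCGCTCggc
Mt2: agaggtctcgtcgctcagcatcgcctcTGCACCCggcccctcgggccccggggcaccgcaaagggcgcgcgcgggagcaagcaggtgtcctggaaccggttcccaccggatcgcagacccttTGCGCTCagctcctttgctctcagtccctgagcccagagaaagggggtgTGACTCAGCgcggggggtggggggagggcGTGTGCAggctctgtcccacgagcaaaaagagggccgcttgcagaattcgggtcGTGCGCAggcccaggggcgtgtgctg
Slc30a1: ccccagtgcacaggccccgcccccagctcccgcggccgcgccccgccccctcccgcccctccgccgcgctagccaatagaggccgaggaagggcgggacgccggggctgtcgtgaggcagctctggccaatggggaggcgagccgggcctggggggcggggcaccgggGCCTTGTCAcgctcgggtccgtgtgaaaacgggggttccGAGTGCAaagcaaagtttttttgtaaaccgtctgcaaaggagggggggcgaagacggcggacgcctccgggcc
The RefSeq start of Mt2 lies 46 bases upstream of the GENCODE start, and that of Mt1 lies 7 bases and that of Slc30a1 14 bases inside the GENCODE gene. In the full window, which runs to 50 bases after the start, Mt2 held 4 matches to the metal response element core, Mt1 held 3, Slc30a1 held 2 and Slc30a5 held 1. Of 32851 RefSeq promoter windows of the same 300 bases, 25.7% held at least 1 match, 1.97% at least 3 and 0.517% at least 4. The antioxidant response element core was found once each in Mt2, Slc30a1, Slc30a5 and Slc39a1, and in 12.4% of all windows. TTCNNNGAA, the letters bound by STAT factors, was found in 0 of the 7 members with a window and in 8.3% of all windows. Mtf1 and Slc30a7 held none of these letters, and Slc39a14 had no window. The Mt1 matches lay 23 bases before and 3 and 21 bases after its RefSeq start. Bases further than 50 after a start were not searched, so counts and absences of matches hold for the annotated RefSeq starts only. Whether transcripts of these PMφs begin at those starts was not tested, so the counts and absences do not rank the genes. These matches describe the letters in the window and were not tested for use.

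The deposited values are called normalised read counts here, since they are spaced like counts divided by a factor per library and rounded. Their scaling is not stated. On that reading 1 unit stands for 0.708 to 1.31 reads, depending on the library. Implied reads numbered 16.7 to 26.2 M per library. Every member passed the filter, which asked for 10 or more units in 3 or more libraries. The lowest member value, that of Mt2 in control PMφs, rested on 60 implied reads and a counting error of 12.9%, and the spread between replicates was 5.81 to 15.97 times the counting noise over the 9101 to 9399 genes of higher count in a pair of libraries. All 8 macrophage markers were present, with a summed value of 231967 to 347950. All 10 markers of mesothelial cells and fibroblasts were also listed. Their sum ran from 5821 to 25130 in control, 6108 to 20655 in oxLDL, 6310 to 32024 in LPS and 5432 to 18534 in oxLDL+LPS libraries. In each group the highest sum was in replicate 1 and the lowest in replicate 3. Col1a1 stood at 1782 to 12012, Col1a2 at 1644 to 10339, Pdgfra at 712 to 4164, Col3a1 at 524 to 2882 and Dcn at 330 to 1895. Wt1 stood at 76 to 366, Upk3b at 26 to 272, Krt19 at 8 to 62, Lum at 4 to 39 and Msln at 2 to 14. In such bulk cultures, fewer cells of a type and less RNA per cell cannot be told apart.

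The difference with LPS was largest for Mt2. Its normalised read count was 90, 79 and 50 in control replicates 1, 2 and 3 and 2896, 1052 and 1998 in the LPS replicates. Every LPS library was above every control library, and the group means of 73.0 ± 20.7 and 1982 ± 922 (SD, n = 3) stood 27.2-fold apart. On the log2 scale of the value plus 1, which is used for every log2 difference here, LPS was higher by 4.67 (SE 0.37), and by 4.99, 3.72 and 5.29 within replicate numbers 1, 2 and 3. In oxLDL-loaded PMφs the values were 135, 90 and 95 without LPS and 1058, 731 and 655 with LPS, again without overlap. The means there were 107 ± 24.7 and 815 ± 214, a 7.64-fold difference, with a log2 difference of 2.91 (SE 0.23). LPS accounted for 90.5% of the variance of Mt2 over the 12 libraries, against a median of 61.0% over all tested genes.

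Mt1, which lies beside Mt2 and encodes a protein of the same kind, differed less. It stood at 834, 990 and 952 in control and at 1822, 1078 and 1636 in LPS libraries. The groups did not overlap, but replicate 2 of LPS, at 1078, was close to the highest control library, at 990, and the log2 difference of 0.68 (SE 0.19) was made up of 1.13, 0.12 and 0.78 by number. In oxLDL-loaded PMφs the values without LPS were 1016, 980 and 908 and those with LPS were 1340, 827 and 944, so the groups overlapped, with a log2 difference of 0.07 (SE 0.17). LPS accounted for 28.1% of the variance of Mt1.

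**Figure D1:**
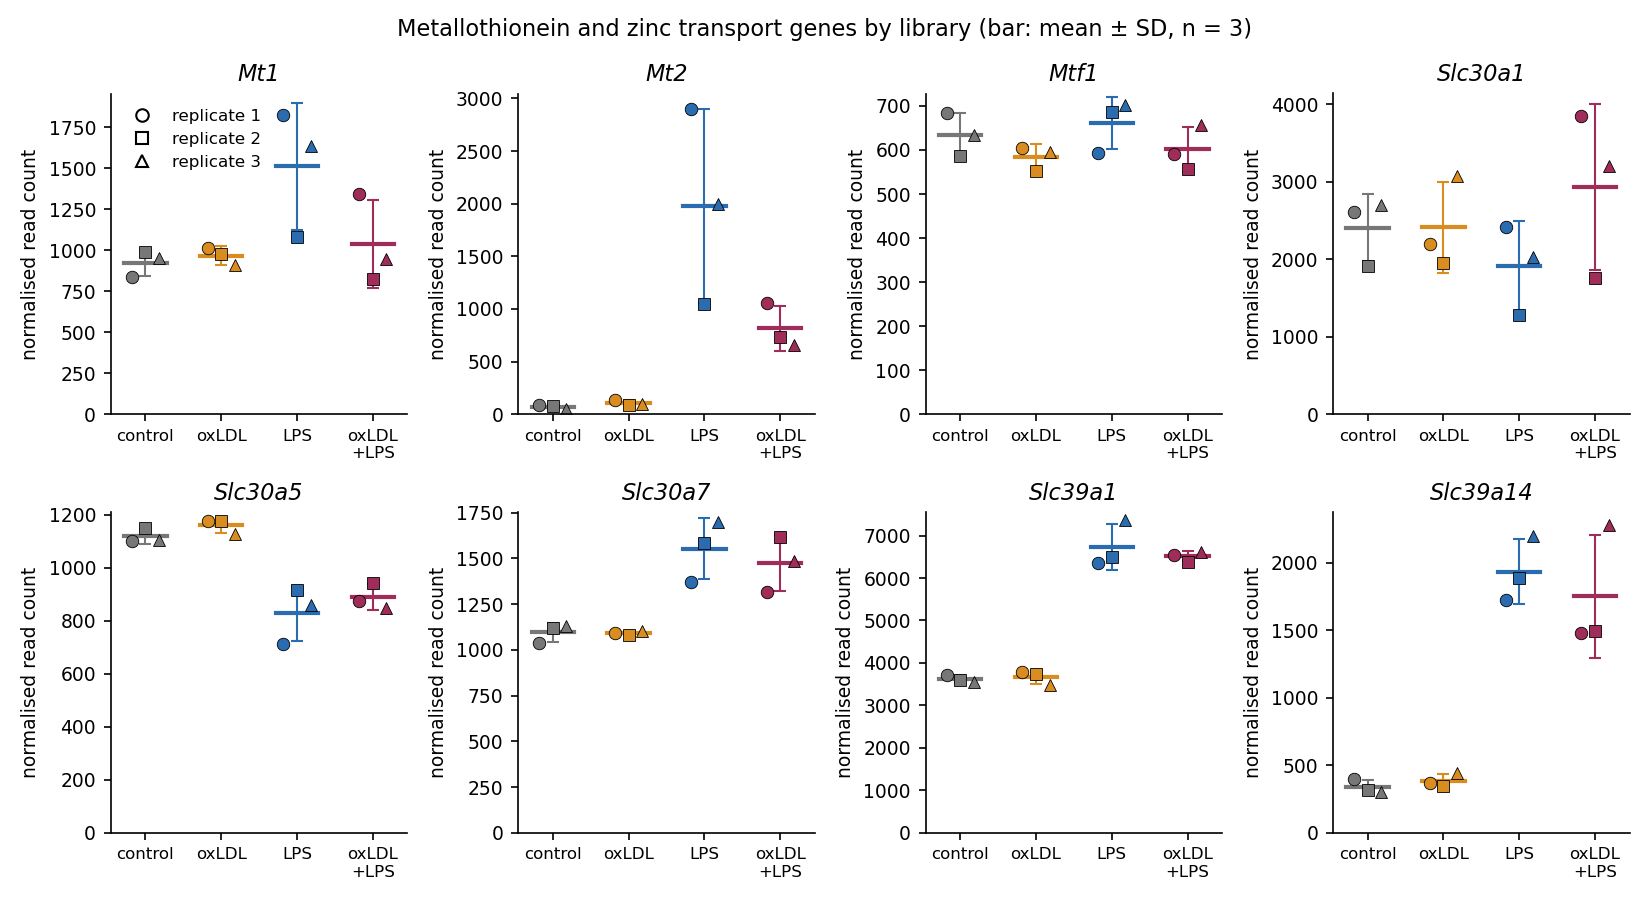
Normalised read count (vertical axis, from 0) of each of the 8 genes in each library of the 4 groups, with the symbol giving the replicate number and the bars the mean ± SD (n = 3). Mt2 stands between 50 and 135 in the 6 libraries without LPS and between 655 and 2896 in the 6 with LPS, and Slc39a1 and Slc39a14 separate the same libraries.

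The importers were both higher with LPS. Slc39a14 (ZIP14), which carries zinc and also iron and manganese into cells and is known as an acute-phase gene of the liver, stood at 395, 314 and 303 in control and 1726, 1883 and 2195 in LPS libraries. In oxLDL and oxLDL+LPS libraries it stood at 367, 347 and 439 and at 1480, 1495 and 2276. The libraries with and without LPS did not overlap in either pair of groups, with log2 differences of 2.52 (SE 0.14) in unloaded and 2.16 (SE 0.18) in oxLDL-loaded PMφs. Slc39a1 (ZIP1), a broadly expressed importer of the plasma membrane, stood at 3723, 3598 and 3542 in control and 6347, 6499 and 7361 in LPS libraries, a log2 difference of 0.89 (SE 0.09). With oxLDL it stood at 3798, 3744 and 3488 without LPS and at 6553, 6386 and 6606 with it, a difference of 0.83 (SE 0.08). LPS accounted for 98.1% of the variance of Slc39a1 and 96.7% of that of Slc39a14, the highest shares among the 8 genes.

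The exporters did not share a direction. Slc30a7 (ZnT7), which loads zinc into the Golgi apparatus, stood at 1035, 1122 and 1129 in control and 1373, 1585 and 1701 in LPS libraries, a log2 difference of 0.50 (SE 0.10). In oxLDL-loaded PMφs it stood at 1090, 1081 and 1101 without LPS and 1316, 1618 and 1487 with it, a difference of 0.43 (SE 0.09). Slc30a5 (ZnT5), which supplies zinc to enzymes of the secretory pathway, was lower with LPS. Its values were 1101, 1150 and 1104 in control and 713, 915 and 858 in LPS libraries, a log2 difference of -0.44 (SE 0.11). With oxLDL they were 1175, 1176 and 1129 without LPS and 873, 943 and 849 with it, a difference of -0.39 (SE 0.08). Both exporters separated the libraries with LPS from those without in either pair of groups, in opposite directions.

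Slc30a1 and Mtf1 overlapped between libraries with and without LPS. Slc30a1 stood at 2613, 1910 and 2704 in control and 2422, 1275 and 2026 in LPS libraries, lower by 0.11, 0.58 and 0.42 on the log2 scale in numbers 1, 2 and 3, with a log2 difference of -0.37 (SE 0.24). With oxLDL it stood at 2199, 1956 and 3078 without LPS and at 3843, 1756 and 3200 with it, a difference of 0.24 (SE 0.30) that was positive in numbers 1 and 3 and negative in number 2. The replicate number accounted for 57.6% of the variance of Slc30a1, against a median of 11.3% over all genes, and replicate 2 was the lowest library of each group. Mtf1 kept within 552 and 702 in all 12 libraries, with log2 differences of 0.06 (SE 0.11) and 0.04 (SE 0.10) with LPS.

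Of all genes tested, limma called 61.7% between LPS and control and 54.5% between oxLDL+LPS and oxLDL at an adjusted p under 0.1. Among the 8 genes, 5 were called higher and 1 lower in unloaded PMφs (31.4% and 30.3% of all genes), and 4 higher and 1 lower in oxLDL-loaded PMφs (28.1% and 26.3%). Mt1 was the gene called in unloaded PMφs and not called in oxLDL-loaded PMφs. Without overlap between groups were 6 genes in unloaded PMφs (32.1% of all genes higher and 31.1% lower) and 5 in oxLDL-loaded PMφs (29.6% and 28%). Their median log2 difference was 0.59 and 0.33, against -0.0007 and -0.02 over all genes. With the replicate number as a block, Slc30a1 was also called lower in unloaded PMφs, making 5 called higher and 2 lower where 34.6% and 34.1% of all genes, 68.7% together, were called. In oxLDL-loaded PMφs the block called the same 5 genes and 63.4% of all genes, 32% higher and 31.4% lower.

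The size of the smaller differences with LPS rested on the scaling of the libraries. Summed values were 22071853 to 26384551 in libraries with LPS and 17152972 to 17709731 in those without. Scaling every library to the same sum moved the median of all genes by -0.48 in unloaded and by -0.39 in oxLDL-loaded PMφs, and genes called higher fell from 4087 against 3938 lower to 2170 against 7215 between LPS and control, and from 3626 against 3389 to 2028 against 6651 between oxLDL+LPS and oxLDL. Quantile normalization moved the medians by -0.14 and -0.11. Mt2, Slc39a14 and Slc39a1 kept their direction under both, with LPS differences in unloaded PMφs of 4.19, 2.04 and 0.41 at equal sums and of 4.58, 2.30 and 0.27 after quantile normalization. At equal sums, Mt1 came to 0.19, Slc30a7 to 0.02, Slc30a5 to -0.92, Slc30a1 to -0.85 and Mtf1 turned to -0.43. In oxLDL-loaded PMφs, Mt1 turned to -0.32, Slc30a1 to -0.16 and Mtf1 to -0.35 at equal sums, and they also turned after quantile normalization, to -0.15, -0.19 and -0.10.

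**Figure D2:**
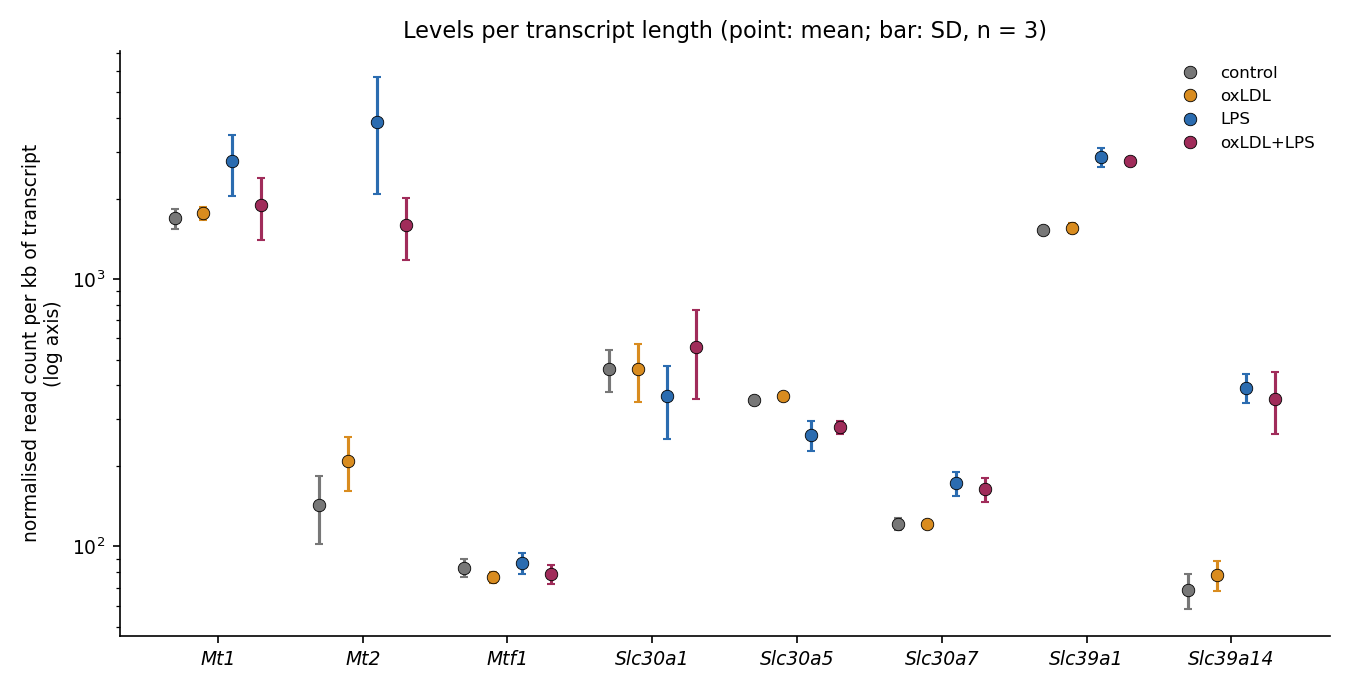
Normalised read count per kb of the longest consensus coding transcript (vertical log axis, mean ± SD, n = 3) for the 8 genes in the 4 groups. Mt2 moves from the fifth place in control to the first in LPS libraries, while Mtf1 stays between 76.6 and 86.6.

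Levels of different genes were compared per kb of the longest consensus coding transcript, which is 549 bases for Mt1 and 511 bases for Mt2. In control PMφs, Mt1 was first with 1685 ± 148 units per kb and Slc39a1 second with 1532 ± 39.2, followed by Slc30a1 with 459 ± 82.9, Slc30a5 with 352 ± 8.64, Mt2 with 143 ± 40.4, Slc30a7 with 121 ± 5.81, Mtf1 with 83.2 ± 6.36 and Slc39a14 with 68.5 ± 10.2. The control libraries of Mt1 and Slc39a1 overlapped on this scale, as did those of Mt2 and Slc30a7. In LPS libraries, Mt2 was first with 3879 ± 1805, followed by Slc39a1 with 2849 ± 231 and Mt1 with 2754 ± 705, and these 3 did not differ beyond the spread of Mt2. Slc39a14, the last of the 8 in control libraries, was the fourth in LPS libraries with 393 ± 48.5. In oxLDL libraries the order was that of control libraries except that Slc39a14 with 78.0 ± 9.82 stood just above Mtf1 with 76.6 ± 3.72. In oxLDL+LPS libraries Slc39a1 came first with 2756 ± 48.6, ahead of Mt1 with 1889 ± 490 and Mt2 with 1594 ± 419, which lay within their spread of each other.

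Without LPS, oxLDL left the 8 genes close to control. Limma called 0 of the 8 genes and 0% of all 12734 genes tested, of which 379 had an unadjusted p under 0.05. Mt2 showed the widest difference, with 135, 90 and 95 in oxLDL against 90, 79 and 50 in control libraries. Each oxLDL library was above the control library of its number, by 0.58, 0.19 and 0.91 on the log2 scale, and the groups met at 90, so that 0 of the 8 genes separated oxLDL from control, as 3.79% of all genes did upward and 3.9% downward. The mean log2 difference was 0.56 (SE 0.26, or 0.15 with the replicate block), and the blocked fit called Mt2 higher, where it called 1.79% of all genes higher and 2.91% lower. With any one replicate number left out, the blocked fit called 0 of the 8. For the other 7 genes the log2 difference lay between -0.12 for Mtf1 and 0.19 for Slc39a14. Mtf1 was lower with oxLDL in all 3 numbers, as 19.3% of all genes were, and Slc30a5 and Mt2 were higher in all 3, as 17.5% of all genes were.

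With LPS, oxLDL-loaded PMφs held less metallothionein RNA and more Slc30a1 RNA than unloaded PMφs in every replicate number. Mt2 stood at 2896, 1052 and 1998 in LPS and 1058, 731 and 655 in oxLDL+LPS libraries. The highest oxLDL+LPS library, at 1058, was just above the lowest LPS library, at 1052, and within numbers Mt2 was lower by 1.45, 0.52 and 1.61 on the log2 scale, a mean difference of -1.19 (SE 0.36, or 0.17 with the block) that leaves the mean at 0.411 times that of LPS. Mt1 stood at 1822, 1078 and 1636 against 1340, 827 and 944, lower by 0.44, 0.38 and 0.79, with a mean of -0.54 (SE 0.25, or 0.09 with the block). Slc30a1 stood at 2422, 1275 and 2026 against 3843, 1756 and 3200, higher by 0.67, 0.46 and 0.66, with a mean of 0.60 (SE 0.34, or 0.08 with the block). The groups overlapped for all 3 genes, with LPS replicate 2 low for Mt1 and Mt2 and oxLDL+LPS replicate 2 low for Slc30a1, while the differences within numbers kept 1 sign.

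Limma called 0 of the 8 genes and 0% of all 12769 genes tested between oxLDL+LPS and LPS, with 890 genes at an unadjusted p under 0.05. With the replicate block it called 3 of the 8, Slc30a1 higher and Mt1 and Mt2 lower, where it called 4.41% of all genes higher and 8.75% lower. The direction was the same in all 3 numbers for 4 of the 8, Slc30a1 higher and Mt1, Mt2 and Mtf1 lower, against 21% of all genes higher and 24.4% lower. Of all genes, 6.18% and 6.37% separated the groups without overlap in the higher and the lower direction, and 0 of the 8 genes did. Without replicate 2, the blocked fit called the same number of members, 3, and 2945 genes in all, while without replicate 1 or without replicate 3 it called 0 members and 70 or 0 genes in all, against 1680 with all 3 numbers. With a number left out, such fits hold few libraries, so their counts of calls do not show whether a call is stable. The blocked difference of Mt2 was -1.53 without replicate 2, -1.07 without replicate 1 and -0.99 without replicate 3. The marker sum of mesothelial cells and fibroblasts was 32024, 15014 and 6310 in LPS and 18534, 16488 and 5432 in oxLDL+LPS libraries. With oxLDL it was lower in numbers 1 and 3 and higher in number 2. Its part in the differences was not tested.

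**Figure D3:**
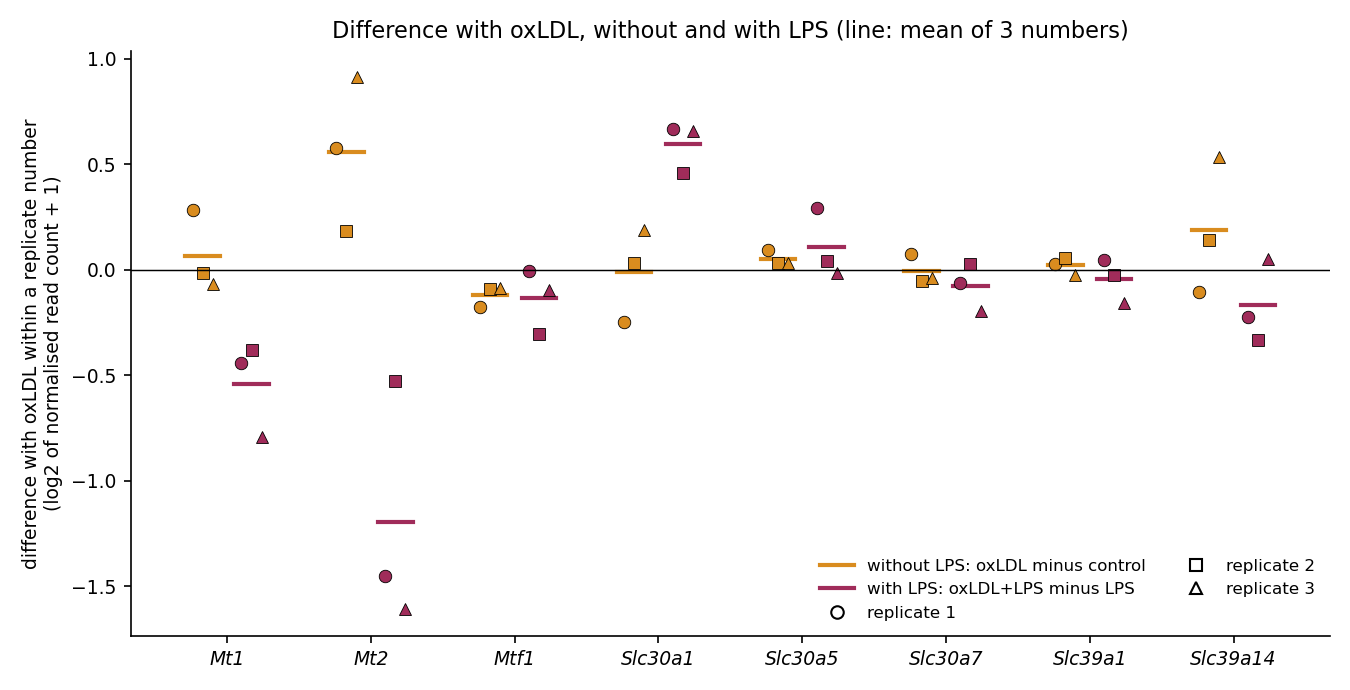
Log2 difference with oxLDL within each replicate number (vertical axis) for the 8 genes, without LPS (oxLDL minus control) and with LPS (oxLDL+LPS minus LPS), with lines at the mean of the 3 numbers. Mt2 lies above 0 without LPS (0.19 to 0.91) and below 0 with LPS (-1.61 to -0.52) in every number, and Slc30a1 lies at 0.46 to 0.67 with LPS and on both sides of 0 without it.

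The other 5 genes differed little between oxLDL+LPS and LPS libraries. Slc39a1 differed by -0.05 (SE 0.10), Slc30a7 by -0.08 (SE 0.12), Slc30a5 by 0.11 (SE 0.12), Mtf1 by -0.13 (SE 0.12) and Slc39a14 by -0.17 (SE 0.19). Their groups overlapped in every case. The differences of Mt1, Mt2 and Slc30a1 kept their direction when library sums were made equal, at -0.45, -1.10 and 0.69, and after quantile normalization, at -0.50, -1.16 and 0.68.

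The interaction asks whether the difference with oxLDL was the same with and without LPS. It was -1.75 (SE 0.49) for Mt2, with -2.03, -0.71 and -2.52 by number, -0.61 (SE 0.28) for Mt1, with -0.73, -0.37 and -0.72, and 0.60 (SE 0.43) for Slc30a1, with 0.91, 0.43 and 0.47. For these 3 genes the difference with oxLDL therefore moved 1 way with LPS in all 3 numbers, as it did for 18.4% of all genes upward and 20.3% downward, and Slc39a14 was lower by 0.12, 0.48 and 0.48. Limma called 0 of the 8 and 0% of 13465 genes on all 12 libraries. With a replicate block within each LPS state it called Slc30a1 higher and Mt1 and Mt2 lower, where it called 0.379% of all genes higher and 0.661% lower, and with a block on the number alone it called 0 of the 8. The difference with oxLDL lay above 0 without LPS and below 0 with it in all 3 numbers for Mt2, and such opposite directions were found for 4.11% of all genes. Apart from these 3 genes and Slc39a14, the remaining 4 had interactions between -0.07 and 0.05.

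Within a library, Mt2 and Mt1 can be set against each other without any scaling between libraries. The ratio of Mt2 to Mt1 counts was 0.108, 0.0798 and 0.0525 in control, 0.133, 0.0918 and 0.105 in oxLDL, 1.59, 0.976 and 1.22 in LPS and 0.790, 0.884 and 0.694 in oxLDL+LPS libraries. The mean ratio was 0.0801 ± 0.0277 in control and 1.26 ± 0.309 in LPS libraries, and the 3 oxLDL+LPS libraries, with 0.789 ± 0.0950, all lay below the 3 LPS libraries. In control and oxLDL libraries the ranges overlapped. The sum of both genes was 4718, 2130 and 3634 in LPS and 2398, 1558 and 1599 in oxLDL+LPS libraries, against 924 to 1151 in the 6 libraries without LPS.

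**Figure D4:**
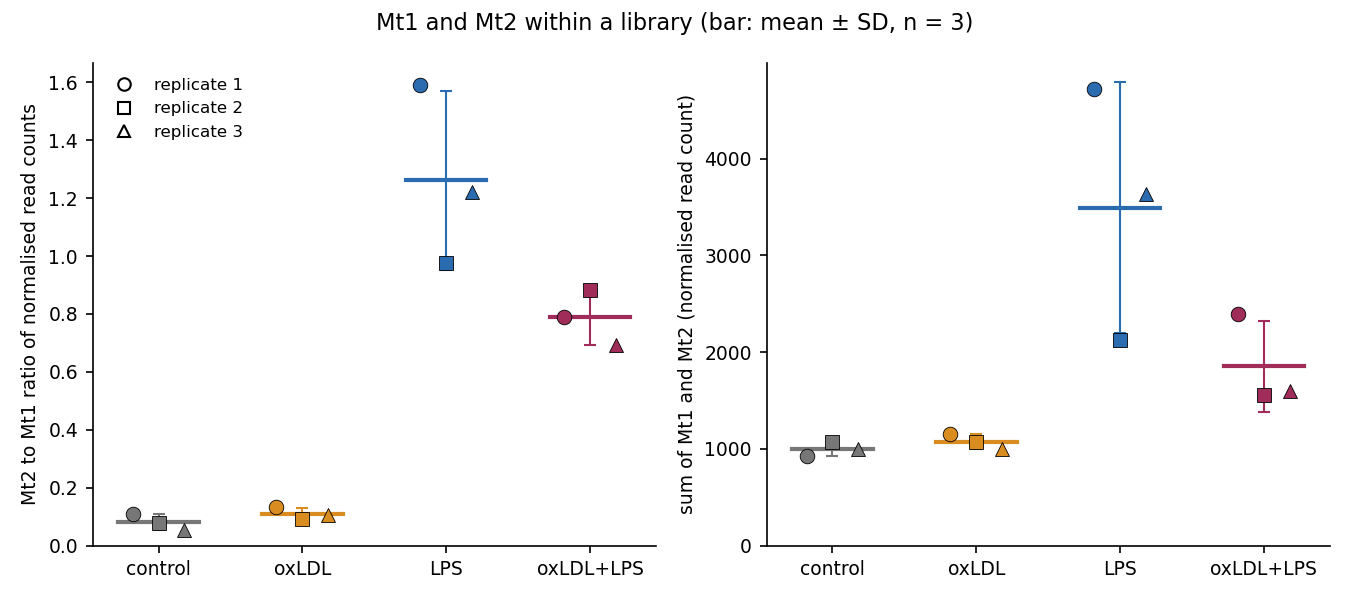
Ratio of the normalised read counts of Mt2 and Mt1 in each library (left) and their sum (right), by group, with the mean ± SD (n = 3) and both axes from 0. The ratio is at most 0.133 without LPS, 0.694 to 0.884 in oxLDL+LPS and 0.976 to 1.59 in LPS libraries.

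Genes outside the zinc and copper lists whose log2 values followed a member most closely over the 12 libraries were named by Pearson's r among 13425 genes. For Mt2 they were Hdac1 (r = 0.984), Socs3 (r = 0.983), the feedback inhibitor of cytokine signaling, and Itpr1 (r = 0.983). For Mt1 they were Rin2 (r = 0.913), St8sia4 (r = 0.892) and Maf (r = 0.889), a macrophage transcription factor. For Slc30a1 they were Tkt (r = 0.950), an enzyme of the pentose phosphate pathway, Htra2 (r = 0.939) and Abi3 (r = 0.936), and over the 6 libraries with LPS alone the same 3 genes had r of 0.975, 0.974 and 0.967. Slc39a14 was closest to Pmpca, Micall2 and Heatr9 (r = 0.995 to 0.997), Slc39a1 to Fam98b, Ddx24 and Stxbp3a (0.996 to 0.997), Slc30a7 to Snn, Wac and Cr1l (0.990 to 0.993), Slc30a5 to 1810058I24Rik, Rdh13 and Pgls (0.980 to 0.984) and Mtf1 to Foxk2, Tubb2b and Tmco6 (0.818 to 0.871). The 12 points share pools by replicate number and fall into libraries with and without LPS, so these correlations describe these libraries only.

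The rest of the zinc and copper genes were taken from lists of 41 genes, of which 30 to 32 passed the filter in a given comparison. Between LPS and control, 12 rose and 7 fell at an adjusted p under 0.1, and between oxLDL+LPS and oxLDL 11 rose and 6 fell. These are 19 of 32 and 17 of 31 tested, where 61.7% and 54.5% of all genes were called, so the counts set these lists apart in neither comparison. Their median log2 difference was 0.02 and 0.08, against -0.0007 and -0.02 over all genes. At equal library sums the counts were 7 higher and 17 lower, and 8 higher and 14 lower. With the replicate block, Slc39a4 was also called higher (adjusted p = 0.00842 with blocked limma) and Sod1 lower (adjusted p = 0.0799 with blocked limma) in unloaded PMφs. Slc39a5 (adjusted p = 0.0891 with blocked limma) and Tmc8 (adjusted p = 0.0313 with blocked limma) were called lower in oxLDL-loaded PMφs. Without the block these 4 calls were not made. Adjusted p-values are from limma over all genes tested.

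All 3 further exporters that could be tested rose with LPS in unloaded PMφs, but Slc30a9 fell at equal sums and did not pass after quantile normalization. Slc30a6 (ZnT6), the partner with which ZnT5 forms a complex, stood at 238, 201 and 208 in control and 581, 686 and 778 in LPS libraries. It was higher by 1.65 (SE 0.14, adjusted p = 4.36e-05 with limma) in unloaded and by 1.49 (SE 0.15, adjusted p = 0.000185 with limma) in oxLDL-loaded PMφs, whereas Slc30a5 was lower. Slc30a4, an exporter of endosomal vesicles, was higher by 1.22 (SE 0.12) and 1.01 (SE 0.11). Slc30a9, a mitochondrial zinc transporter, differed by 0.19 (SE 0.08, adjusted p = 0.0763 with limma) in unloaded PMφs and by -0.29 at equal sums.

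The other importers were divided. Slc39a10, an importer of the plasma membrane, fell from 1139, 1162 and 1269 in control to 559, 579 and 735 in LPS libraries, by 0.94 on the log2 scale (SE 0.12, adjusted p = 0.000468 with limma). It also fell in oxLDL-loaded PMφs, by 0.76 (SE 0.17). Slc39a11 fell by 0.63 (SE 0.09) and 0.56 (SE 0.09), Slc39a9 fell in unloaded PMφs by 0.25 (SE 0.11) and Slc39a13 in oxLDL-loaded PMφs by 0.24 (SE 0.10). Slc39a7, which releases zinc from the endoplasmic reticulum and Golgi, rose by 0.56 (SE 0.14) and 0.46 (SE 0.15), and Slc39a6 rose by 0.26 (SE 0.09) and 0.33 (SE 0.09), but at equal sums Slc39a7 did not pass, at 0.07 and 0.08, and Slc39a6 turned to -0.22 and -0.06. Slc39a8 (ZIP8), the closest relative of Slc39a14, differed by 0.04 (SE 0.19) and -0.08 (SE 0.17), neither past the test, and at equal sums by -0.45 and -0.47, both past it. Slc39a4, known from zinc uptake in the gut, rose with LPS in oxLDL-loaded PMφs from 13, 10 and 8 to 96, 21 and 71, by 2.26 (SE 0.56, adjusted p = 0.0128 with limma).

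**Figure D5:**
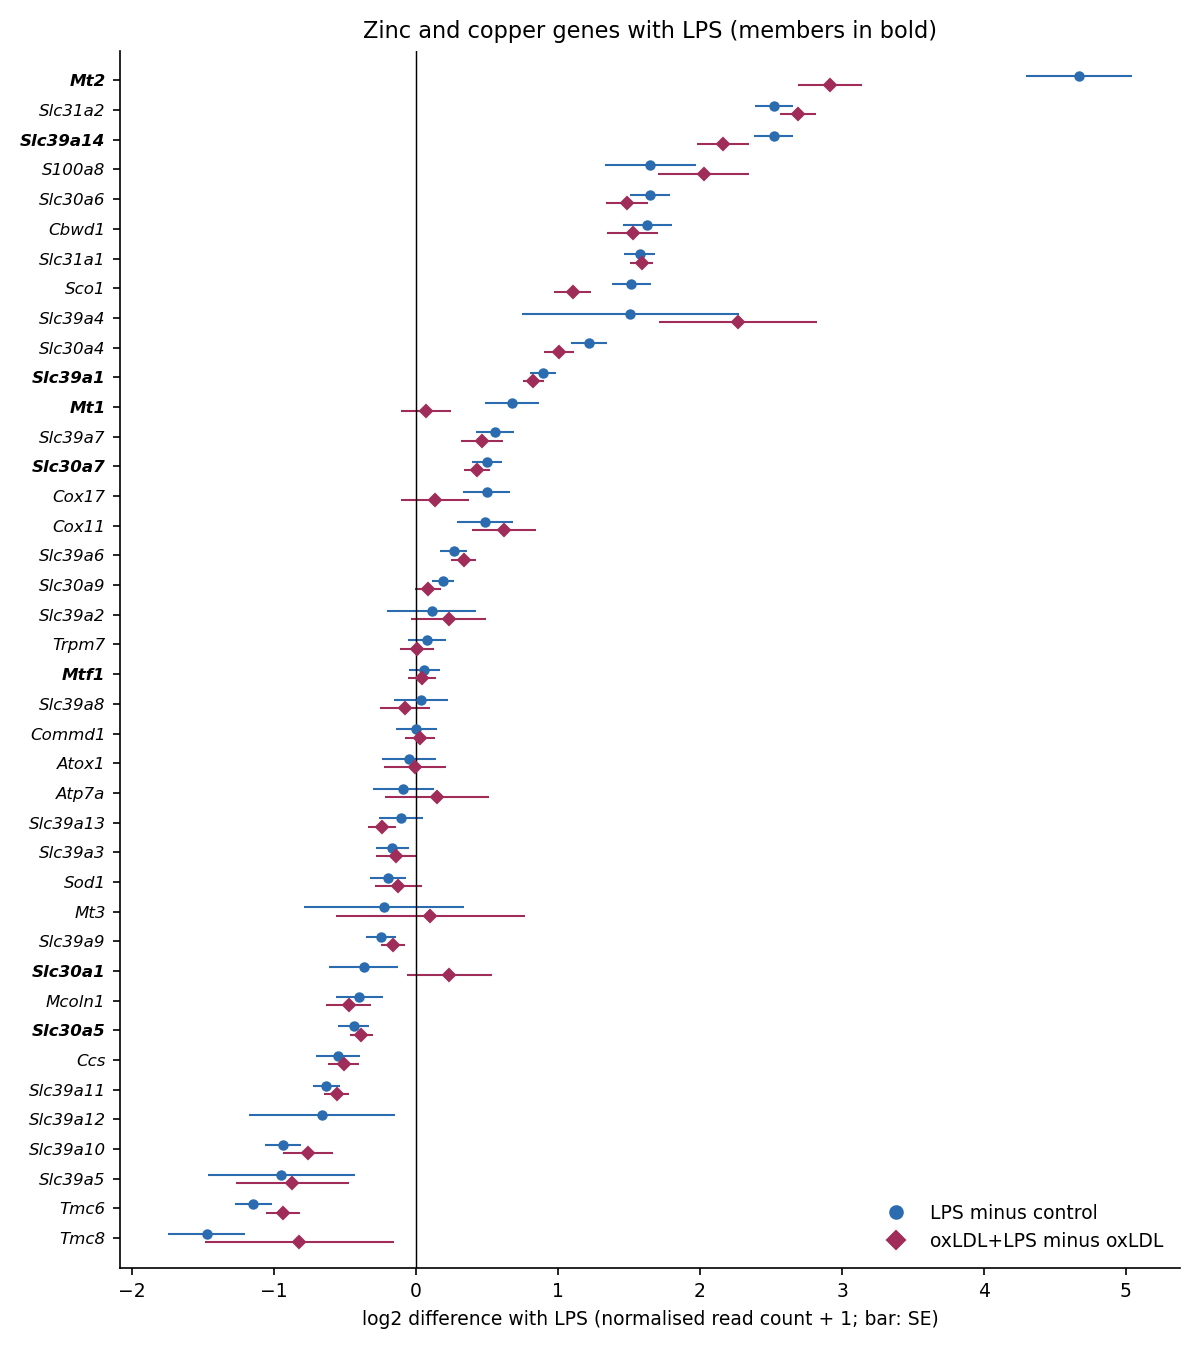
Log2 difference with LPS (horizontal axis, bars give the SE) of the 8 genes, in bold, and the listed zinc and copper genes that passed the filter, for LPS minus control (circles) and oxLDL+LPS minus oxLDL (diamonds). Mt2 has the highest value in both, 4.67 and 2.91. Among the members, the 2 values of Mt1, Mt2, Slc30a1 and Slc39a14 lie apart from each other. So do those of listed genes such as Slc39a4 (1.51 and 2.26), Tmc8 and Sco1.

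Among other zinc-handling genes, Cbwd1, a GTPase of the zinc chaperone family, was higher by 1.63 (SE 0.17) and 1.53 (SE 0.18) with LPS. Tmc6, whose product is known to form a complex with ZnT1 and the product of Tmc8, fell by 1.15 (SE 0.13) and 0.94 (SE 0.12), and Tmc8 fell in unloaded PMφs by 1.48 (SE 0.27). Mcoln1, a cation channel of lysosomes, fell by 0.40 (SE 0.17) and 0.48 (SE 0.16). S100a8, a subunit of the zinc-binding protein calprotectin, rose by 1.65 (SE 0.32) and 2.03 (SE 0.32), from 31 to 49 without LPS to 74 to 248 with it. S100a9, the gene of the other subunit, was listed at 1 in control replicate 1 and at 0 in the other 11 libraries, and the 7 neutrophil markers, with Ly6g at 0 everywhere, summed to 213 to 1688 without LPS and to 148 to 825 with it. Most of that sum was Mmp8, at 131 to 1661, while Cxcr2 stayed at 43 or less and Camp, Ltf, Ngp and Retnlg at 25 or less. The part of such cells in the values of S100a8 was not tested.

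Among the listed genes outside the 8 members, a copper gene changed most with LPS in both pairs of groups. Slc31a2, a copper transporter of endosomes and lysosomes, rose from 1236, 1458 and 1348 in control to 6485, 7965 and 8963 in LPS libraries, by 2.52 (SE 0.13, adjusted p = 3.98e-06 with limma), and by 2.69 (SE 0.13) in oxLDL-loaded PMφs. Slc31a1, the copper importer of the plasma membrane, rose by 1.57 (SE 0.11) and 1.59 (SE 0.08). Sco1, which delivers copper to cytochrome c oxidase, rose by 1.52 (SE 0.14) and 1.10 (SE 0.13). Cox11, with the same task, rose by 0.49 (SE 0.20) and 0.62 (SE 0.22) and Cox17 by 0.50 (SE 0.16) in unloaded PMφs, but neither passed at equal sums. Ccs, the copper chaperone of superoxide dismutase, fell by 0.55 (SE 0.15) and 0.51 (SE 0.11).

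With oxLDL, 0 of the listed genes passed the test with or without LPS, with 0 and 2 of them at an unadjusted p under 0.05 by limma. With the replicate block, Tmc8 and Sod1 rose without LPS, by 0.63 (SE 0.15) and 0.27 (SE 0.05), 2 of 31 tested where the block called 1.79% of all genes higher and 2.91% lower. With LPS, the blocked fit called Slc39a4, Tmc8, S100a8 and Sod1 higher, by 1.54, 1.28, 0.53 and 0.34, and Slc30a4 and Cox17 lower, by 0.27 and 0.40. These are 6 of 30 tested, where the block called 4.41% of all genes higher and 8.75% lower. Tmc8 differed by 1.78, -0.04 and 2.10 by number, so its difference rested on replicates 1 and 3. Slc39a4 differed by 1.24, 0.21 and 3.17 by number, and by 0.94 to 2.18 on average when 1 library was left out without the block. Without replicate 2 the blocked fit called 11 listed genes and without replicate 1 or 3 it called 0, in fits that hold few libraries. In the interaction 0 listed genes were called, with 1 at an unadjusted p under 0.05 by limma, and 0 with the block within each LPS state.

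Mt4, Slc30a2, Slc30a3, Slc30a8, Slc30a10, Tmem163, S100a9, Atp7b and Sco2 did not pass the filter in any comparison. Slc30a3, Slc30a8, Slc30a10 and Sco2 were listed at 0 in all 12 libraries. Mt3, the metallothionein best known from brain, stood at 6 to 53 and did not pass the test in any comparison. Among the 8 genes, 2 overlap an antisense gene that has its own row, Mtf1 with 1110065P20Rik at 44 to 83 and Slc30a1 with 1700034H15Rik at 7 to 40. Mt2 and Slc30a7 overlap antisense genes of a later annotation. In Mt2, Gm45774 covers 432 of the 588 exon bases, or 73.5%. The overlap is 16.0% of the exon bases in Slc30a7, 8.09% in Mtf1 and 8.92% in Slc30a1. Whether counting used strand is not stated, so reads of such partners cannot be told apart.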

How the data were processed

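Poly(A) RNA of 12 cultures was sequenced from both ends (reads of 150 bases) with a directional kit. The authors' tools, per the submitters' processing notes, were Trimmomatic 0.32, STAR 2.5.1b, with mm10 (GRCm38) as the genome, and featureCounts. The values they deposited, treated as a signal, are whole numbers spaced as read counts would be after division by a library's own factor (0.708 to 1.31) and rounding. Reads were not recovered and no count test was run. Of its rows, 25 hold symbols turned into dates, at most 0.165% of a library, and were left out.

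Groups were compared with limma 3.58.1 (R 4.3.3; lmFit, eBayes with trend) on log2 of the value plus 1, over genes that reached 10 in 3 or more libraries of the fit. Benjamini-Hochberg adjustment ran over all genes tested, at a threshold of 0.1. Each 2-group fit held its own 6 libraries, and the interaction was fitted on all 12. Where no block is named, the fit ignored the replicate numbers, so differences between pools counted in its spread. Its 0 calls with oxLDL therefore do not show that oxLDL changed no gene. The scripts were tested on simulated data.

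The members and lists were chosen with earlier results of these data known. Every contrast counts as used in choosing the 8 members, so their calls are a description. Named genes are the 8 members, listed genes past the threshold or below the filter, 8 listed genes named whatever their values (S100a8, S100a9, Slc39a8, Slc39a10, Slc30a6, Slc30a9, Slc39a6 and Slc39a7), and per member the 3 unlisted genes of highest r. Mt3, Trpm7 and Commd1, and the marker genes, were named after their values were seen. Gene positions are those of GENCODE M21, promoters those of RefSeq. Replicate numbers pair the libraries: the methods divide pooled cells among the groups, and deviations from group means correlated at 0.305 to 0.733 between same-numbered libraries in every pair of groups, against at most 0.071 for other numbers. The labels give no more than the replicate number. The paper states that n counts biological replicates, and gives n = 3 for its principal component analysis with and without oxLDL. The p-values measure the spread between these cultures, and how much of it is technical was not measured. Alternatives were the pseudocount, the filter, 2 scalings, the variance model, the replicate block, all libraries in 1 fit and leaving out replicates. Leaving out a whole replicate number was added after the data were seen. Blocked fits with a number left out hold few libraries. Their calls rest largely on the variance that limma takes from all genes together, so they do not measure stability.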

Additional observations from a re-analysis of the deposited data

Results flagged for a closer look

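Mt2 was flagged because the difference with oxLDL went in opposite directions without and with LPS in all 3 replicate numbers: oxLDL libraries were above control by 0.58, 0.19 and 0.91 on the log2 scale, and oxLDL+LPS libraries were below LPS by 1.45, 0.52 and 1.61. The 2 mean differences stood -1.75 apart. In the interaction fit limma did not call Mt2, and with a replicate block within each LPS state it did. Since Mt2 was chosen with these data in view, neither is an independent test. It was the single gene of this kind among the 40 listed genes that passed the filter on all 12 libraries, and 4.11% of all 13465 genes showed opposite directions in this way. The difference was -1.62 without replicate 1, -2.28 without replicate 2 and -1.37 without replicate 3.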

How the results depend on the processing

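The block on the replicate number changed most counts: without LPS it called 1 member and 2 listed genes with oxLDL, with LPS 3 members and 6 listed genes, and within each LPS state 3 members in the interaction, each against 0 without a block. It gave 7 members and 21 listed genes for LPS against control (6 and 19 without it), 5 and 19 for oxLDL+LPS against oxLDL (5 and 17), and beside the calls given in the report it changed no other call. Leaving out whole numbers under the block gave 0 to 3 listed genes with oxLDL without LPS, 0 to 11 listed genes and 0 to 3 members with LPS, and 0 to 2 listed genes and 0 to 3 members in the interaction. Without the block, leaving out libraries or numbers gave 0 to 1 listed genes with oxLDL in the presence of LPS, 13 to 18 for LPS against control and 11 to 19 for oxLDL+LPS against oxLDL. Leaving out oxLDL+LPS replicate 2 gave the 1 call, and leaving out number 3 gave the 11. At equal library sums the LPS difference in unloaded PMφs turned to -0.29 for Slc30a9, -0.22 for Slc39a6, -0.45 for Slc39a8, -0.41 for Trpm7 and -0.48 for Commd1, and in oxLDL-loaded PMφs to -0.31 for Slc30a9, -0.055 for Slc39a6, -0.38 for Trpm7 and -0.36 for Commd1. After quantile normalization it turned to -0.070 for Slc30a9 in unloaded PMφs and to -0.36 for Trpm7 in both. The cause was not tested. Of 888 alternative values of member differences, 853 stayed within 1 SD of the replicates and 35 moved further. Of 3419 for listed genes, 3257 kept their direction and side of the threshold, 84 lost and 66 gained a call, and 12 turned. With 3 pools a group, the spread between cultures exceeded the counting noise in genes of higher count, and for genes of low value such as Slc39a4 and Mt3 the share of either was not measured.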
